A study of Mus musculus with 15 samples.

Results

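The 10 genes described here make the MHC class I molecule and load it with peptide in mouse CD8+ T cells. They were taken by name, with earlier results of these data known. They are the light chain gene B2m, the heavy chain genes H2-K1, H2-D1, H2-Q7 and H2-T23, the transporter genes Tap1 and Tap2, the loading chaperone Tapbp, the trimming enzyme Erap1 and the regulator Nlrc5. The deposited gene table held 55536 annotated genes, of which 17366 were tested, and all 10 were among these.

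RNA sequencing covered 15 libraries, 5 in each of 3 groups, all of CD8+ T cells taken from lymph nodes and spleen. The cells come from OT-I mice, in which a transgenic receptor recognises an ovalbumin peptide. All libraries share the OT-1 Tg C57BL/6J strain of the labels, and the study's methods add a Rag1-/- or Rag2-/- background, so that the donor mice had no other T cell receptor and no B cells of their own. The Naive group was made from OT-I mice without transfer. For the Ag group, OT-I cells were moved into C57BL6/J recipients, which have their own B cells and T cells, and which received the peptide with a rat IgG control. For the Ag+Costim group, recipients received agonist antibodies to OX40 (CD134) and to 4-1BB (CD137) with the antigen. The labels put collection at day 4 and the study's methods somewhat earlier. Transferred cells were sorted on CD8, CD45.1 and both receptor chains. Mice were of both sexes, and the age behind each library is not given in the sources used here. Transfer, antigen and collection all separate Naive from the other groups and cannot be told apart. Nothing in the labels ties each library to 1 animal, so p-values measure the spread between these libraries.

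MHC class I molecules are carried by nearly all nucleated cells and show peptides from the cell's own proteins to CD8+ T cells. Proteasomes cut proteins into peptides, the Tap1-Tap2 transporter brings them into the endoplasmic reticulum, Erap1 trims their ends, and tapasin (Tapbp) holds the heavy chain and B2m light chain near the transporter until a peptide is bound. Interferon gamma raises this whole set of genes in many cell types, and the regulator Nlrc5 acts at their promoters.

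Libraries differed in depth, lane and purity. Total counts ranged from 4865952 (Ag 3) to 25280667, with a median of 14967616, and 16.9% of the sequenced reads of Ag 3 were counted. The recorded input to the preparation, which has no unit, was 1.4 in Ag 2 and 1.8 in Ag 5, against 7 to 10 in the others. Lane 2 carried the whole Ag group with Ag+Costim 1 to 3, and lane 3 carried the whole Naive group with Ag+Costim 4 and 5, so that Ag and Naive shared no lane. All 6 CD8+ T cell markers were found in every library, and their summed level was 4699 to 7573 CPM (counts scaled to a common library total) in Naive, 3926 to 7111 in Ag and 4065 to 5061 in Ag+Costim. The 6 B cell markers summed to 20.5 to 26.5 CPM in Naive and 14.0 to 32.8 in Ag+Costim. In Ag they summed to 142 in Ag 1, 16.7 in Ag 2, 378 in Ag 3, 175 in Ag 4 and 20.7 in Ag 5. Of the defining B cell genes, Pax5 was at 0 in 4 libraries. The 5 erythroid markers reached 965 CPM in Ag 3 and at most 112 elsewhere. Over all libraries, the 5 myeloid markers spanned 10.9 CPM (Naive 1) to 175 CPM (Naive 5). The 2 NK cell markers reached at most 41.6 CPM, and the 2 CD4+ T cell markers at most 5.66 CPM.

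The promoters of the class I genes share short elements, and they are shown here, with these elements in capitals, for H2-K1, H2-Q7 and Tap1, which edgeR called in Ag+Costim vs Naive, and for H2-D1, H2-T23 and B2m, with which their levels are compared. Windows and start sites were taken from RefSeq on GRCm38.p6, which held 8 of the 10 genes and not Tap2 or Nlrc5. Each sequence runs 5′ to 3′ on the strand of the gene, over the 200 bases that end just before the annotated start. Capitals mark every match, on either strand, to CCAAT (the Y box, bound by NF-Y), TGACG (the X2 element, bound by CREB and ATF factors), GGGATTCCC (kappa B), AAGTGAAA (a core bound by IRF factors) and GAAANNGAA (the interferon-stimulated response element). The last pair can overlap, and none of the matches shown does.
H2-K1 (chr17:34000348-34000547, minus strand): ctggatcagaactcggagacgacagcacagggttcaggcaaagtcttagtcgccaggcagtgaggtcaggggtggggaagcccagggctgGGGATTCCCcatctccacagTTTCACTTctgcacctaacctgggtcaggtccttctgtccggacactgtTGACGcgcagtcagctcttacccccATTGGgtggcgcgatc
H2-D1 (chr17:35262894-35263093, plus strand): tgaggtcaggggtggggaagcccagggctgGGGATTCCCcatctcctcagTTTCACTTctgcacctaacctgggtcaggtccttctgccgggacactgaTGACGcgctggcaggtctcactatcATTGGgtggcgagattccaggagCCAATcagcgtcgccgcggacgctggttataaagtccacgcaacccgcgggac
H2-Q7 (chr17:35438955-35439154, plus strand): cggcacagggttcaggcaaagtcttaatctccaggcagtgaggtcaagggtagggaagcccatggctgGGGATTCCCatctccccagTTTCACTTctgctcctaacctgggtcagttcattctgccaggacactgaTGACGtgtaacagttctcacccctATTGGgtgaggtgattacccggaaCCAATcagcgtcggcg
H2-T23 (chr17:36032702-36032901, minus strand): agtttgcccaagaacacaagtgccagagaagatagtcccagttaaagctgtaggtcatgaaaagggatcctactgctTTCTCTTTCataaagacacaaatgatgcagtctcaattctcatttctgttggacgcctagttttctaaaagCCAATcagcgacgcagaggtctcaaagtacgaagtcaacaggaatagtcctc
Tap1 (chr17:34187356-34187555, plus strand): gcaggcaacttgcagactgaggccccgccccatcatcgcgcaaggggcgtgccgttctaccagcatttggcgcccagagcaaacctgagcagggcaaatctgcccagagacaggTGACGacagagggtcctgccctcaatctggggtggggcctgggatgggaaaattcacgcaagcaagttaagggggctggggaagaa
B2m (chr2:122147487-122147686, plus strand): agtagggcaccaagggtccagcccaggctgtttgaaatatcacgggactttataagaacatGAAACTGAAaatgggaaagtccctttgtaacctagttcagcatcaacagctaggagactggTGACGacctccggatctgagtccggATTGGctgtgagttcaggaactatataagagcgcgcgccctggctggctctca

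The promoters of H2-K1, H2-D1 and H2-Q7 each held kappa B, the IRF core, the X2 element and a Y box in that order, and H2-D1 and H2-Q7 held a second Y box further on. From the first base of the kappa B match, the IRF core began 20 bases on in H2-K1 and H2-D1 and 19 bases on in H2-Q7. The X2 element began 69, 69 and 68 bases on, and the first Y box 94, 94 and 92 bases on. Over this stretch, H2-K1 and H2-D1 were identical at 88 of 99 aligned positions (88.9%), and H2-Q7 matched each of them at 84 of 99 (84.8%). The annotated start lay at different distances from these elements, with the kappa B match beginning 110 bases before it in H2-K1, 170 in H2-D1 and 132 in H2-Q7. H2-T23 had a Y box and an interferon-stimulated response element, and B2m had these as well as an X2 element. Tap1 had an X2 element in this window and a Y box 222 bases before the start, outside it.

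Over the 250 bases before the start, the kappa B letters stood in 84 of 27025 genes with a window (0.311%) and in 3 of the 8 genes here. The IRF core stood in 1.44% of all genes and in 3 of 8. The X2 element stood in 17.9% and in 5 of 8, and the Y box in 34.5% and in 7 of 8. The interferon-stimulated response element stood in 7.16% and in 3 of 8. With 1 further A at its 3′ end it stood in 3.04% and in 2 of 8 (B2m and H2-T23), and the shorter form was chosen after both counts were seen. The letters were picked as elements that class I promoters share, so these shares describe the promoters and test nothing. The kappa B and IRF core matches all lie in H2-K1, H2-D1 and H2-Q7. Those promoters are 84.8% to 88.9% identical over the stretch given above, so the matches are not independent. A match is a run of letters and was not measured as a bound site.

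B2m was the most abundant of the 10 transcripts and Nlrc5 the least abundant in every group. Levels between genes were compared as TPM, which divide counts by transcript length and scale each library to the same total. B2m stood at 5861 ± 782 TPM (SD, n = 5) in Naive, at 5599 ± 891 in Ag and at 4714 ± 470 in Ag+Costim. This was the rank 10, 8 and 6 among all genes of the table in those groups. H2-K1 and H2-D1 came next, with H2-K1 above H2-D1 in the means of Naive and Ag and below it in that of Ag+Costim. H2-K1 was at 3355 ± 613, 2915 ± 1168 and 2119 ± 342 TPM, and H2-D1 was at 2756 ± 359, 2658 ± 669 and 2257 ± 239. Much lower were H2-Q7 (473 ± 67.5 TPM in Naive), H2-T23 (380 ± 81.1) and Tapbp (321 ± 51.9), then Tap1 (142 ± 8.59) and Tap2 (133 ± 20), and last Erap1 (50.9 ± 9.86) and Nlrc5 (33.0 ± 10.3). Neighbours in this order were not always apart: H2-K1 exceeded H2-D1 in 10 of 15 libraries, H2-T23 exceeded Tapbp in 11, and H2-Q7 exceeded H2-T23, Tap1 exceeded Tap2 and Erap1 exceeded Nlrc5 in 13 each. B2m exceeded H2-K1, H2-D1 exceeded H2-Q7, Tapbp exceeded Tap1 and Tap2 exceeded Erap1 in all 15. The heavy chain genes are near copies of each other and reads were 50 bases long, so the split of reads between them is uncertain.

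**Figure D1:**
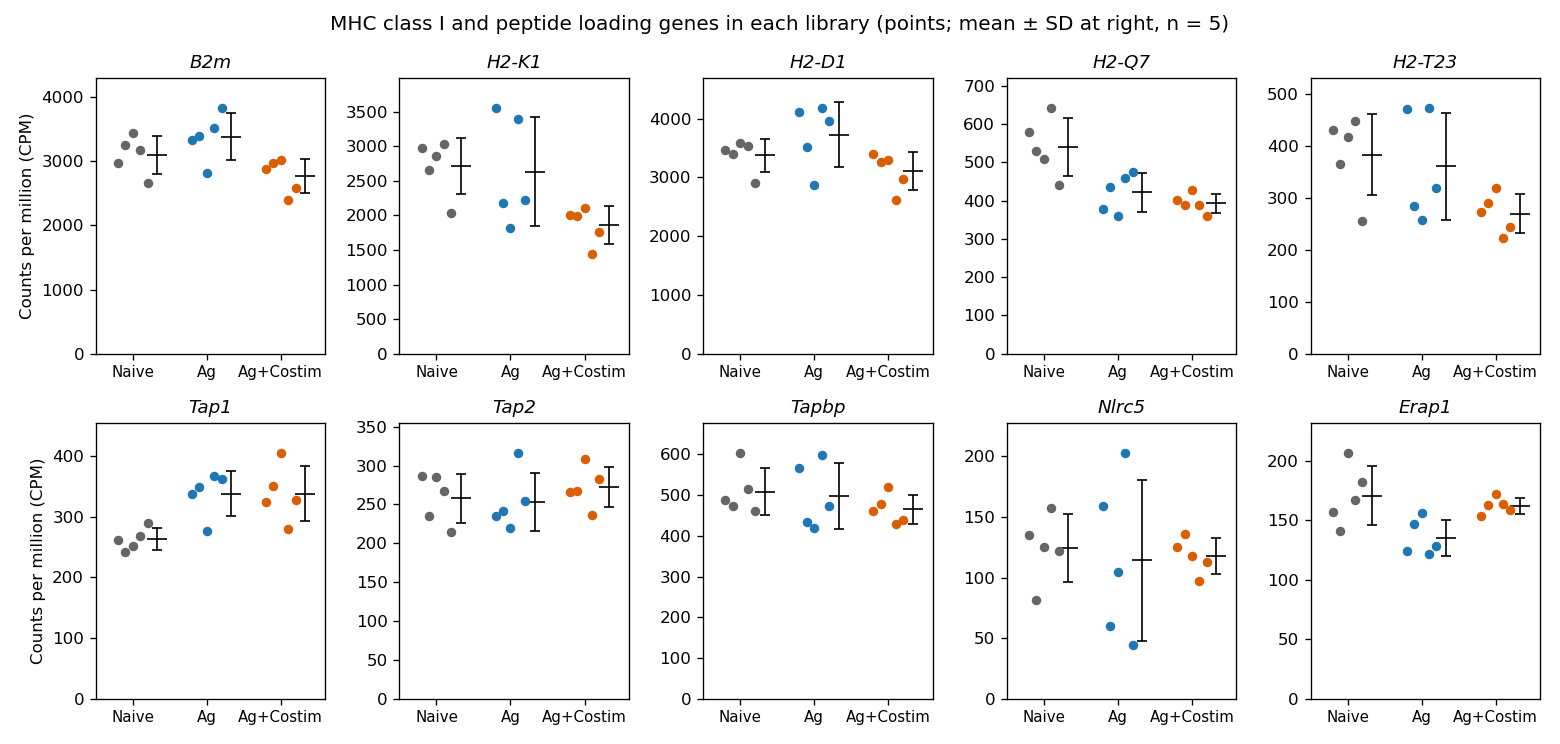
Level of each gene in CPM (y axis, from 0) in the 15 libraries by group (x axis). Points are libraries in replicate order, and the bar beside them gives the mean and SD of 5. H2-Q7 in Ag+Costim lies between 359 and 428 CPM, below all Naive libraries, while Nlrc5 in Ag spreads from 44.7 to 203.

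Of these 10 genes, 0 to 3 were called in each comparison by the main test across all genes. With edgeR's quasi-likelihood test and a false discovery rate (FDR, after Benjamini and Hochberg) under 0.05, 3 of 10 were called between Ag+Costim and Naive: Tap1 was higher, and H2-K1 and H2-Q7 were lower. In that comparison 44.7% of all tested genes were called, 21.0% higher and 23.6% lower in Ag+Costim. The share among the 10 was not tested against this background, and 10 genes are too few to tell the shares apart. DESeq2 and limma voom called these 3 and H2-T23 there, against 53.1% and 78.6% of all genes they tested. Between Ag and Naive, edgeR called 0 of 10 (6.71% of all genes), with 3 at an unadjusted p under 0.05 (H2-Q7, Tap1 and Erap1), and DESeq2 (18.6% of its tested genes) and limma voom (3478 of 17366 genes) each called those 3. Between Ag+Costim and Ag, edgeR called 0 of 10 (0.0346% of all genes), with 3 at an unadjusted p under 0.05 (B2m, H2-K1 and Erap1). There DESeq2 called 0 (14.6% of its tested genes) and limma voom 5, which were these 3 with H2-D1 and H2-T23, against 57.5% of all genes by limma voom. With no filter on low counts, the calls of H2-K1, H2-Q7 and Tap1 in Ag+Costim vs Naive were lost (FDR 0.364, 0.393 and 0.137). That fit called 4158 of 48994 genes. The 3 comparisons share libraries, so their values are given side by side.

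The median size of the log2 fold change over the 10 genes, without its sign, was 0.12 in Ag vs Naive, 0.15 in Ag+Costim vs Naive and 0.18 in Ag+Costim vs Ag, against 0.43, 0.67 and 0.36 over all tested genes. The 10 genes were not matched on level with all tested genes, so these medians do not show that the 10 were steadier. The median with its sign was -0.04, -0.12 and -0.10, against 0.08, -0.08 and -0.10 over all tested genes. Levels are relative to each library's total, so a lower value can mean fewer transcripts of the gene or more of others, and less RNA per cell and fewer cells of a type cannot be told apart. CPM did not overlap between Ag+Costim and Naive for 1 of the 10 genes (H2-Q7), against 45.0% of all tested genes. None of the 10 was free of overlap in Ag vs Naive or in Ag+Costim vs Ag, where 3.85% and 6.33% of all tested genes were.

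**Figure D2:**
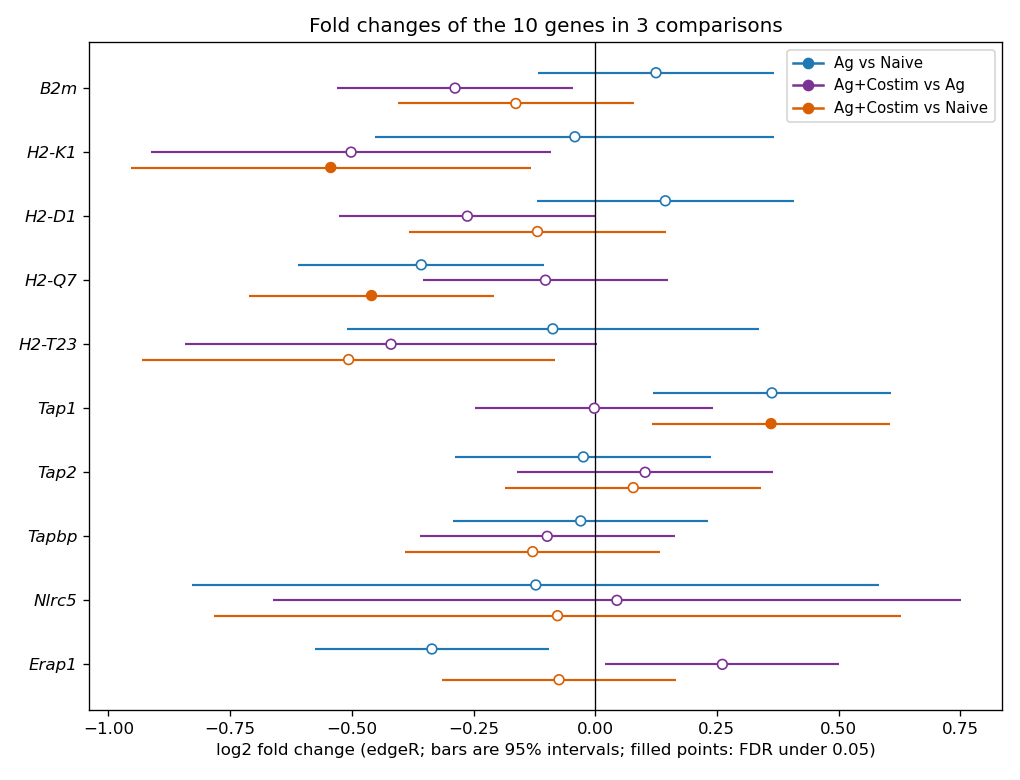
The log2 fold change of each gene (x axis) from edgeR in 3 comparisons, with 95% intervals as bars and filled points at an FDR under 0.05. Only H2-K1, H2-Q7 and Tap1 have filled points, all in Ag+Costim vs Naive, and the bars of Nlrc5 are the widest.

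H2-K1 encodes the heavy chain of the classical class I molecule that presents the ovalbumin peptide to OT-I cells. Its level was 2972, 2659, 2858, 3039 and 2033 CPM in Naive 1 to 5, then 3554, 2177, 1815, 3400 and 2227 in Ag, and 2006, 1986, 2111, 1437 and 1765 in Ag+Costim. Ag+Costim lay below Naive 1 to 4, and Naive 5 fell among the Ag+Costim libraries. The Ag libraries split into 2 high values (Ag 1 and Ag 4) and 3 lower ones. H2-K1 had a log2 fold change of -0.54 in Ag+Costim vs Naive (95% interval -0.95 to -0.13, edgeR FDR 0.0353), a fold of 0.686. It was -0.50 in Ag+Costim vs Ag (-0.91 to -0.09, FDR 0.122) and -0.04 in Ag vs Naive (-0.45 to 0.37, FDR 0.900). Within lane 3, with 5 Naive and 2 Ag+Costim libraries, H2-K1 stood at -0.76 (FDR 0.0366), and within lane 2, with 5 Ag and 3 Ag+Costim, at -0.36 (FDR 0.646). The call of H2-K1 was lost with lane as a term (FDR 0.0663), when each of Naive 1 to 4 was left out in turn (FDR 0.0827, 0.0520, 0.0724 and 0.0854) and without Ag+Costim 1, 2, 4 or 5 (FDR 0.0551, 0.0567, 0.221 and 0.0732).

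H2-D1 is the other classical heavy chain gene of this strain and was not called by edgeR in any comparison, while limma voom called it in Ag+Costim vs Ag (FDR 0.0197). It stood at 3466, 3400, 3580, 3529 and 2900 CPM in Naive, at 4114, 3519, 2866, 4183 and 3965 in Ag, and at 3396, 3269, 3289, 2610 and 2980 in Ag+Costim. The Ag+Costim values lay within the span of the Naive ones except for Ag+Costim 4. The log2 fold change of H2-D1 was 0.14 in Ag vs Naive (95% interval -0.12 to 0.41, edgeR FDR 0.426), -0.26 in Ag+Costim vs Ag (-0.53 to 0.00, FDR 0.188) and -0.12 in Ag+Costim vs Naive (-0.38 to 0.15, FDR 0.431).

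H2-Q7, which encodes a heavy chain of the nonclassical Qa-2 molecule, had the lowest FDR of the set, in Ag+Costim vs Naive. Its level was 580, 530, 509, 643 and 441 CPM in Naive, 379, 435, 360, 460 and 476 in Ag, and 403, 388, 428, 388 and 359 in Ag+Costim. All Ag+Costim libraries lay below all Naive libraries, and 2 Ag libraries (Ag 4 and Ag 5) overlapped Naive 5. Its log2 fold change was -0.46 in Ag+Costim vs Naive (95% interval -0.71 to -0.21, edgeR FDR 0.0117), -0.36 in Ag vs Naive (-0.61 to -0.11, FDR 0.0774) and -0.10 in Ag+Costim vs Ag (-0.35 to 0.15, FDR 0.591). Within lane 3, H2-Q7 stood at -0.53 in Ag+Costim vs Naive (FDR 0.0583), and with lane as a term also at -0.53 (FDR 0.0589). Without Ag+Costim 4 it was at -0.36 (FDR 0.0981), and without Naive 5 the Ag vs Naive difference was called at -0.42 (FDR 0.0234). H2-Q7 is a near copy of H2-Q6, which stood at 262 ± 25.0 CPM in Naive and 292 ± 25.5 in Ag+Costim (log2 fold change 0.16, FDR 0.239), so the split of reads between this pair is uncertain.

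H2-T23 encodes the heavy chain of Qa-1, which presents a leader peptide of some class I heavy chains to receptors of the CD94/NKG2 family. It stood at 430, 366, 417, 449 and 257 CPM in Naive, at 471, 285, 258, 474 and 319 in Ag, and at 273, 291, 320, 223 and 243 in Ag+Costim. Its libraries took nearly the same order as those of H2-K1, with Ag 1 and Ag 4 high and Naive 5 low. The log2 fold change was -0.51 in Ag+Costim vs Naive (95% interval -0.93 to -0.08, edgeR FDR 0.0502), just above the threshold, -0.42 in Ag+Costim vs Ag (-0.84 to 0.00, FDR 0.191) and -0.09 in Ag vs Naive (-0.51 to 0.34, FDR 0.787). Without Naive 5, the H2-T23 difference between Ag+Costim and Naive was called at -0.61 (FDR 0.0158), and within lane 3 it stood at -0.72 (FDR 0.0552). In all, it was past the threshold under 7 of 20 alternatives, among them median-ratio size factors (FDR 0.0497), library totals alone (FDR 0.0334) and a fit of only the 10 libraries (FDR 0.0119).

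B2m, the light chain that these heavy chains need to reach the surface, was not called by edgeR with TMM scaling in any comparison. It was called by limma voom in Ag+Costim vs Ag (FDR 0.0347) and with scaling by library totals alone in Ag+Costim vs Naive (FDR 0.0410). Its level was 2971, 3250, 3440, 3169 and 2659 CPM in Naive, 3326, 3398, 2821, 3517 and 3828 in Ag, and 2869, 2971, 3016, 2400 and 2576 in Ag+Costim. Groups overlapped in all comparisons, with Ag 3 the lowest of its group. B2m had a log2 fold change of 0.12 in Ag vs Naive (95% interval -0.12 to 0.37, edgeR FDR 0.454), -0.29 in Ag+Costim vs Ag (-0.53 to -0.05, FDR 0.129) and -0.16 in Ag+Costim vs Naive (-0.41 to 0.08, FDR 0.237). B cells also make class I molecules, and the B cell markers given above were highest in Ag 1, Ag 3 and Ag 4; their part in the class I values of Ag was not tested.

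Tap1, which encodes a subunit of the peptide transporter, was higher in Ag+Costim than in Naive. It stood at 261.982, 242.258, 251.996, 267.881 and 290.005 CPM in Naive, at 338, 348, 276, 366 and 362 in Ag, and at 324, 351, 405, 280 and 328 in Ag+Costim. In each stimulated group 1 library (Ag 3 and Ag+Costim 4) lay below Naive 5, and the other 4 lay above all Naive libraries. Tap1 had a log2 fold change of 0.36 in Ag+Costim vs Naive (95% interval 0.12 to 0.61, edgeR FDR 0.0240), 0.36 in Ag vs Naive (0.12 to 0.61, FDR 0.0678) and 0.00 in Ag+Costim vs Ag (-0.25 to 0.24, FDR 0.993). The first of these calls was lost with lane as a term (0.21, FDR 0.273), within lane 3 (0.21, FDR 0.243) and with scaling by library totals alone (0.21, FDR 0.152). It was also lost when each of Naive 1 to 4 was left out in turn (FDR 0.0538, 0.0592, 0.0508 and 0.0519) and without Ag+Costim 2 or 3 (FDR 0.0535 and 0.0579). The Ag vs Naive difference of Tap1 was called without Naive 5 (0.41, FDR 0.0318) or without Ag 3 (0.43, FDR 0.0358). Tap1 overlaps Psmb9 on the opposite strand and the libraries did not keep strand, so reads of the overlap cannot be told apart.

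Tap2 encodes the partner of Tap1 in the transporter and was not called by edgeR in any comparison. It was at 287, 235, 285, 267 and 215 CPM in Naive, 235, 241, 220, 316 and 255 in Ag, and 265, 268, 308, 237 and 282 in Ag+Costim, and the groups overlapped throughout. Its log2 fold change was -0.02 in Ag vs Naive (95% interval -0.29 to 0.24, edgeR FDR 0.910), 0.10 in Ag+Costim vs Ag (-0.16 to 0.37, FDR 0.606) and 0.08 in Ag+Costim vs Naive (-0.18 to 0.34, FDR 0.607).

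Tapbp, which encodes tapasin, ranged from 462 to 604 CPM in Naive, from 419 to 599 in Ag and from 429 to 519 in Ag+Costim. Its log2 fold changes lay between -0.13 and -0.03, and its lowest edgeR FDR was 0.389, in Ag+Costim vs Naive. Part of Tapbp overlaps Zbtb22 on the same strand.

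Erap1, the aminopeptidase that trims peptides to the length class I molecules hold, had its lowest mean in Ag. It stood at 157, 141, 207, 167 and 182 CPM in Naive, at 125, 147, 156, 121 and 128 in Ag, and at 154, 163, 172, 164 and 159 in Ag+Costim. The Ag+Costim libraries were close together, with an SD of 4.13% of their mean, against 14.7% in Naive. The log2 fold change was -0.34 in Ag vs Naive (95% interval -0.58 to -0.09, edgeR FDR 0.0804), 0.26 in Ag+Costim vs Ag (0.02 to 0.50, FDR 0.157) and -0.07 in Ag+Costim vs Naive (-0.31 to 0.17, FDR 0.592). Without Naive 2 the first was at -0.40 (FDR 0.0484), and without Ag 2 the second was at 0.42 (FDR 0.0445). Without both low-input libraries, Ag 2 and Ag 5, which is a choice made after the values were seen, the second was at 0.47 (FDR 0.0135). Over all genes, the fit without Naive 2 called 978 of 17674 in Ag vs Naive. In Ag+Costim vs Ag, 2679 of 18092 were called without Ag 2 and 9751 of 19290 without Ag 2 and Ag 5. Erap1 overlaps Cast on the opposite strand.

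Nlrc5, the transactivator of class I genes, had the widest spread. It stood at 135, 81.3, 126, 158 and 122 CPM in Naive, at 159, 59.7, 105, 203 and 44.7 in Ag, and at 125, 136, 118, 96.9 and 113 in Ag+Costim. The highest Ag library was 4.54 times the lowest, against 1.94 times in Naive and 1.40 times in Ag+Costim. Its log2 fold change was -0.12 in Ag vs Naive (95% interval -0.83 to 0.58, edgeR FDR 0.824), 0.04 in Ag+Costim vs Ag (-0.66 to 0.75, FDR 0.943) and -0.08 in Ag+Costim vs Naive (-0.78 to 0.63, FDR 0.857). The intervals of Nlrc5 were thus the widest of the 10 genes in each comparison.

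Within Ag, several of these genes moved together from library to library. Ag 1 and Ag 4 held the highest H2-K1, H2-T23, Tapbp and Nlrc5 as well as the lowest Erap1. Ag 2 and Ag 5, the libraries with a recorded input of 1.4 and 1.8, held the lowest Nlrc5, and Ag 3, the shallowest, held the lowest B2m, H2-K1, H2-D1, H2-Q7, H2-T23, Tap1, Tap2 and Tapbp of its group. The part of input and depth in this was not tested. Across all 15 libraries, H2-K1 and H2-T23 had a Pearson r of 0.98 on log2 CPM, B2m and H2-D1 0.90, and H2-K1 and H2-D1 0.84. Erap1 and H2-D1 had r = -0.58, and H2-Q7 and Tap1 -0.45. These values are descriptions over libraries that share groups, lanes and scaling.

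**Figure D3:**
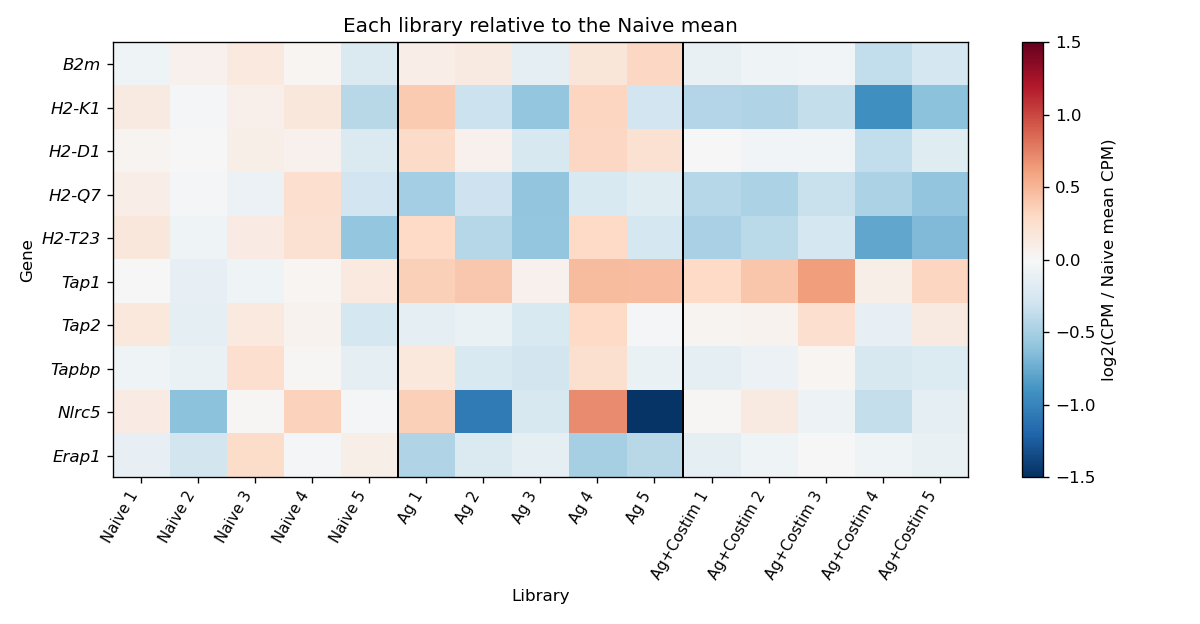
Each cell is log2 of a gene's CPM over its Naive mean (colour scale) for the 10 genes (rows) in the 15 libraries (columns, with lines between groups). The H2-K1 and H2-T23 rows run together (r = 0.98), and Nlrc5 is darkest in Ag 2 and Ag 5.

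To see whether partner genes changed equally, the ratio of H2-K1 to H2-D1 and of Tap1 to Tap2 was taken within each library. H2-K1 stood at 0.857, 0.782, 0.798, 0.861 and 0.701 times the CPM of H2-D1 in Naive, at 0.864, 0.619, 0.633, 0.813 and 0.562 times in Ag, and at 0.591, 0.607, 0.642, 0.551 and 0.592 times in Ag+Costim. All Ag+Costim libraries lay below all Naive libraries, and Ag fell on both sides. The log2 ratio was 0.42 lower in Ag+Costim than in Naive (means -0.75 and -0.33, exact two-sided permutation p = 0.00794, 0.0476 after Benjamini-Hochberg adjustment over the 6 ratio comparisons). That p is the smallest that 5 against 5 allows. Left out of all 6 comparisons, each of Naive 1 to 4 gave an adjusted exact permutation p of 0.0952 and each Ag+Costim library 0.0714. Without Naive 5 it was 0.0317. With 1 library fewer the smallest possible p is higher, and the adjustment also depends on the other ratio comparisons. These adjusted values therefore do not measure how stable the H2-K1 to H2-D1 difference was. Within lane 3 the difference was -0.48 (exact permutation p = 0.0952, the smallest 5 against 2 allows). The other 2 comparisons of H2-K1 to H2-D1 gave -0.21 each (exact permutation p = 0.151 in Ag vs Naive and 0.175 in Ag+Costim vs Ag, both 0.175 adjusted).

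Tap1 stood at 0.914, 1.03, 0.885, 1.00 and 1.35 times Tap2 in Naive, at 1.44, 1.44, 1.25, 1.16 and 1.42 times in Ag, and at 1.22, 1.31, 1.31, 1.18 and 1.16 times in Ag+Costim. Naive 5 was the one Naive library among the stimulated ones. The log2 ratio was 0.39 higher in Ag than in Naive (exact permutation p = 0.0238, adjusted 0.0714), 0.27 higher in Ag+Costim than in Naive (p = 0.0556, adjusted 0.111, exact permutation test) and 0.11 lower in Ag+Costim than in Ag (p = 0.167, adjusted 0.175, exact permutation test). Without Naive 5, the first difference was 0.48 and the second 0.37, each with an adjusted exact permutation p of 0.0317.

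**Figure D4:**
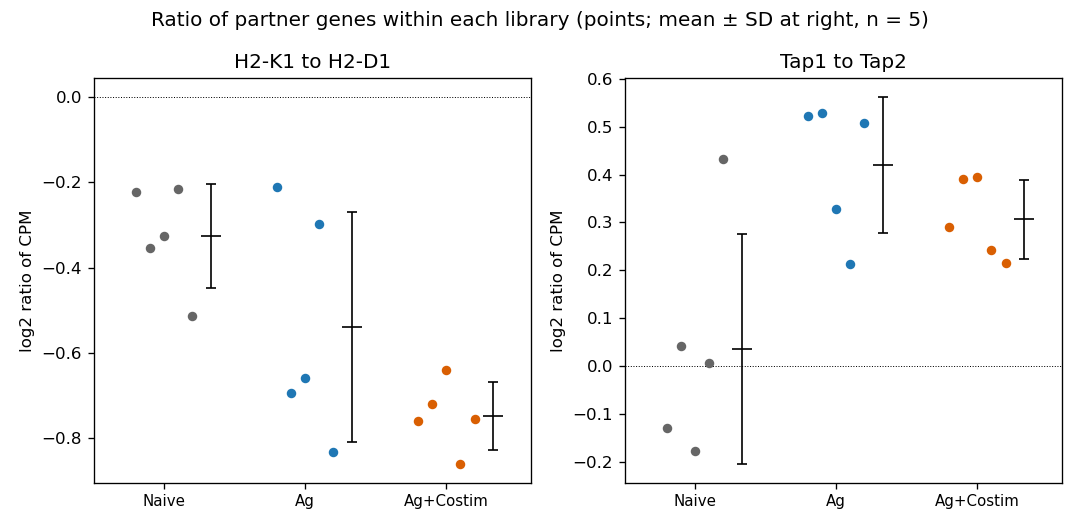
The log2 ratio of CPM (y axis) of H2-K1 to H2-D1 (left) and of Tap1 to Tap2 (right) in each library by group (x axis), with the mean and SD of 5 beside the points. The left panel shows Ag+Costim between -0.86 and -0.64, below all Naive libraries, and the right panel shows 4 Naive libraries between -0.18 and 0.04 with Naive 5 at 0.43.

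Other genes of the pathway were taken from 5 lists. Over all tested genes, edgeR called 21.0% higher and 23.6% lower in Ag+Costim vs Naive. It called 6.71% in Ag vs Naive and 0.0346% in Ag+Costim vs Ag, and the list counts below stand beside these shares. Of 14 genes of endoplasmic reticulum loading and quality control, all tested, 9 were higher and 0 lower in Ag+Costim than in Naive, with a list median log2 fold change of 0.56. The largest were Hspa5, an abundant chaperone (log2 fold change 1.13, edgeR FDR 0.00999), Pdia3, the disulfide isomerase ERp57 that is joined to tapasin in the loading complex (1.08, FDR 0.0133), Calr, which encodes calreticulin (0.94, FDR 0.0134), and Canx, which encodes calnexin (0.86, FDR 0.0314). Pdia3 went from 647 ± 265 CPM in Naive to 931 ± 371 in Ag and 1365 ± 144 in Ag+Costim. In Ag vs Naive, 1 of 14 was higher, Erp29 (0.58, FDR 0.0388), and in Ag+Costim vs Ag edgeR called 0 of 14, with 4 at an unadjusted p under 0.05 and a list median of 0.27.

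The peptide supply list held proteasome subunits and cytosolic peptidases, with 9 of 10 in the table. The immunoproteasome subunit genes Psmb9 and Psmb8, which lie beside Tap1 and Tap2, were higher in Ag than in Naive (0.95, edgeR FDR 0.0166, and 0.65, FDR 0.0445) and in Ag+Costim than in Naive (0.88, FDR 0.00724, and 0.75, FDR 0.00917). The peptidase gene Thop1 was higher in Ag+Costim than in Naive (1.44, FDR 0.0190). The remaining 6 of 9 were not called in any comparison, and 0 of 9 were called in Ag+Costim vs Ag (2 at an unadjusted p under 0.05, edgeR). Psmb9 shares reads of an overlap with Tap1, so these are not independent values.

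Of 14 other class I and class I-like heavy chain genes, 12 were tested. In Ag+Costim vs Naive, Cd1d1, which presents lipids, was lower (-1.46, edgeR FDR 0.00491), as was Mr1, which presents vitamin metabolites (-1.13, FDR 0.0113), and H2-Q10, a secreted class I chain, was higher (0.74, FDR 0.0393). H2-Q10 is a near copy of its neighbours and its value is uncertain. The list median was -0.20 in that comparison and -0.35 in Ag+Costim vs Ag, against -0.08 and -0.10 over all genes tested. In Ag vs Naive and Ag+Costim vs Ag, edgeR called 0 of 12, with 1 and 6 at an unadjusted p under 0.05.

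Among 24 regulators and interferon signalling genes, 2 were higher and 2 lower in Ag than in Naive, and 6 higher and 6 lower in Ag+Costim than in Naive. The counts in Ag+Costim vs Naive were near the shares over all tested genes (21.0% higher and 23.6% lower). In Ag vs Naive, 6.71% of all tested genes were called. Ifngr2, a chain of the interferon gamma receptor, fell from 37.5 ± 17.9 CPM in Naive to 7.13 ± 4.51 in Ag and 1.67 ± 0.537 in Ag+Costim, with log2 fold changes against Naive of -2.42 (edgeR FDR 0.0135) and -4.48 (FDR 0.000590). Socs1, an inhibitor of interferon signalling, changed by -1.18 in Ag and by -1.53 in Ag+Costim on the log2 scale (FDR 0.0284 and 0.00376). Ifng itself rose by 1.98 and 1.40 (FDR 0.0222 and 0.0244), and stayed below 10 CPM in the mean of every group. Nfkb1 rose in Ag (0.55, FDR 0.0349) and in Ag+Costim (0.46, FDR 0.0208), and Ifnar1 fell in Ag+Costim (-0.77, FDR 0.0312). In Ag+Costim vs Ag, edgeR called 0 of 24, with 2 at an unadjusted p under 0.05.

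The class II genes, which present peptides to CD4+ T cells, had most of their calls in Ag. Over all tested genes, 6.71% were called in Ag vs Naive, and 23.6% were lower in Ag+Costim vs Naive. Of 10, 5 were higher in Ag than in Naive, led by H2-DMb2 (3.19, edgeR FDR 0.0233), the class II regulator Ciita (3.09, FDR 0.0202), Cd74 (2.77, FDR 0.0305) and H2-Eb1 (2.64, FDR 0.0428), with a list median of 2.42. Of the B cell markers, 4 of the 5 tested were also higher in Ag than in Naive. The summed class II level was 603 CPM in Ag 1, 137 in Ag 2, 1845 in Ag 3, 714 in Ag 4 and 334 in Ag 5. It was 180 to 331 CPM in Naive. Ag 5 was above this span, while its B cell markers (20.7 CPM) lay within that of Naive. H2-Ob (-0.75) and H2-DMa (-0.06) were below 0 in Ag vs Naive and not called (edgeR FDR 0.471 and 0.890). The part of B cells in the class II values was not tested. Between Ag+Costim and Naive, 3 of 10 were lower and 0 higher: H2-Ob (-4.45, FDR 0.00345), H2-DMa (-0.99, FDR 0.0140) and H2-Oa (-0.99, FDR 0.0250), all of which encode chains of the DM and DO molecules. The list median there was 0.52, of the opposite sign to these calls. Between Ag+Costim and Ag, 0 of 10 were called by edgeR, with 9 at an unadjusted p under 0.05 and a list median of -1.69. The difference between class I and class II genes was not tested.

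**Figure D5:**
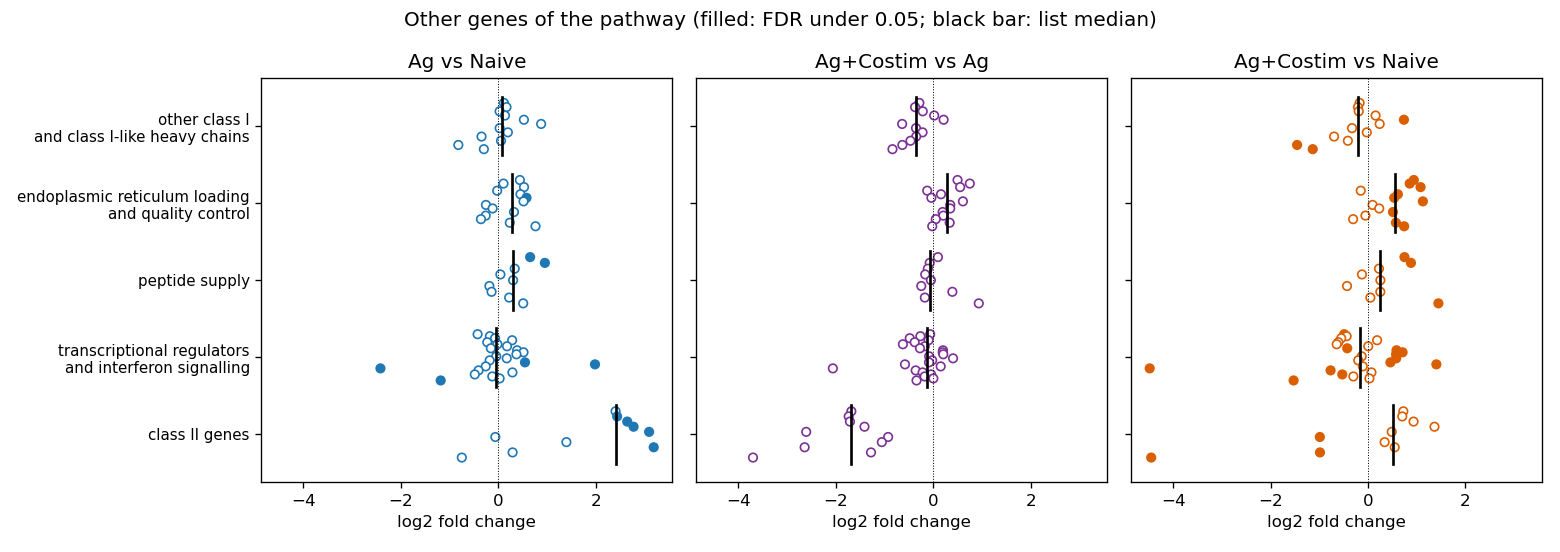
The log2 fold change (x axis) of each tested gene of 5 lists (rows) in 3 comparisons (panels), with filled points at an FDR under 0.05 and a black bar at the list median. The loading and quality control list has 9 filled points to the right of 0 in Ag+Costim vs Naive, and class II genes have a median of 2.42 in Ag vs Naive.

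Which transcripts each gene used was tested with edgeR. B2m has 1 annotated transcript, and of the other 9 genes 0 were called in Ag vs Naive, Ag+Costim vs Ag or Ag+Costim vs Naive, against 1.31%, 1.75% and 2.20% of 7501 genes tested. At an unadjusted p under 0.05 there were 1, 0 and 0, and the lowest FDR was 0.391. By limma's diffSplice, H2-T23 (FDR 0.0134) and Tap2 (FDR 0.0367) were called in Ag+Costim vs Naive, where that test called 16.9% of all 7501 genes, and 0 of 9 in Ag vs Naive (2.27% of all genes, 3 members at an unadjusted p under 0.05) and Ag+Costim vs Ag (0.773%, 1 member). The main coding transcript of H2-T23 held 63.3% ± 13.3 of its counts in Naive, against 79.5% ± 12.6 in Ag and 84.1% ± 4.93 in Ag+Costim. That of Tap2 held 74.4% ± 19.3, 79.6% ± 19.5 and 91.3% ± 5.77, with most of the rest in a transcript annotated as a retained intron. The main coding transcript held 98.6% to 99.0% of counts in the group means of H2-D1 and 97.2% to 98.2% in those of Erap1.

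Transcripts annotated as retained introns held a large share of the counts of some of these genes. In H2-K1 the 7 such transcripts held 51.5% ± 8.08 in Naive, against 43.5% ± 11 in Ag and 43.7% ± 5.66 in Ag+Costim. In H2-Q7 they held 34.4% ± 6.64, 22.2% ± 9.44 and 22.8% ± 2.36, and the Ag+Costim libraries (20.4% to 26.1%) lay below all Naive libraries (27.6% to 42.1%). In Tap1 the shares were 27.6% ± 15.1, 21.0% ± 15.2 and 8.25% ± 3.39, with overlap. In H2-D1, Tapbp and Nlrc5 they were under 1% in the mean of every group. These shares rest on the authors' estimates from short reads, and the summed shares carry no test here. Taken singly, the largest such transcript had an edgeR transcript-use FDR of 0.976 in H2-Q7 and 0.669 in Tap1 in Ag+Costim vs Naive. How often such shares lack overlap over all genes was not counted.

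The genes whose levels ran closest to each of the 10 over the 15 libraries were found among 7012 other coding genes with a mean of at least 20 CPM. For H2-K1 they were Il16, Grcc10 and Slc25a45 (r = 0.97 each), and for H2-T23 Il16, Shisa5 and Ltb (0.97 each). For H2-D1 they were Yipf3 (0.96), H2-Q1 (0.95) and H2-T22 (0.95), the last pair being class I genes themselves and near copies. For B2m they were Itm2b (0.94), Tmem50a (0.93) and Vps28 (0.91), and for H2-Q7 Ddrgk1 (0.92), Brf1 (0.92) and Poli (0.90). Tapbp ran with Ppp1r18 (0.96), Rnf114 (0.93) and Gbp2 (0.93), Nlrc5 with Zbtb1 (0.94), Tyk2 (0.94) and Rap2b (0.94), and Erap1 with Tmem184b (0.95), Tsr1 (0.91) and Ttc13 (0.90). Tap1 and Tap2 had the least close neighbours, led by Lrp10 (0.91), Def6 (0.88) and Mospd3 (0.87) for Tap1 and by Ccdc71 (0.84), Traf3ip2 (0.84) and Acadvl (0.83) for Tap2. These are descriptions over libraries of 3 groups that share lanes and scaling.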

How the data were processed

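Reads were aligned by the authors to mm10 with HISAT2 2.1.0 and SAMtools 1.9, and the deposited tables hold the estimated counts of StringTie 2.1.0 per gene and per transcript as whole numbers, not normalised. Per the file headers, a lane table holds each library's count of sequenced reads and an input amount. The deposited FPKM table, filtered and with identical columns for Ag 1 and Naive 5, was not used here. Of 81881 gene entries, 55536 matched GENCODE M21 (GRCm38). The rest, with 0.0818% of counts, were left out. Coordinates are counted from 1.

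Genes were kept by filterByExpr (17366), scaled by TMM and tested with edgeR 4.0.16 in R 4.3.3, with 1 coefficient per group over all 15 libraries, two-sided, at a Benjamini-Hochberg FDR under 0.05. CPM are counts of a gene scaled by the TMM-adjusted total over tested genes. TPM were computed from transcript counts and lengths. Transcript use was tested with diffSpliceDGE at a Simes-adjusted FDR under 0.05. Ratios were compared by exact permutation in scipy 1.17.1. Correlations used log2(CPM + 1). The scripts were tested on simulated data. Alternatives were DESeq2 1.42.0, limma 3.58.1 (voom with quality weights, diffSplice), other scalings, no filter, a lane term, 1 lane, 10 libraries, a replicate block and each library left out. A further 2 were added after the values were seen. All library pairs within groups differed by more than sampling noise (lowest chi-square per degree of freedom 5.62). Values carry counting error that depth limits as well as the spread between libraries.

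The 10 genes and all lists were chosen with earlier results of these data known. The 10 were named whatever their values. From each list, the genes past the threshold were named, at most 4 per list and comparison by size of the log2 fold change. For likeness, the 3 genes with the highest r were named.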

Additional observations from a re-analysis of the deposited data

Results flagged for a closer look

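H2-D1 in Naive 5 stood apart from the other Naive libraries, at 2900 CPM against 3400 CPM in the next lowest, a gap of 0.736 of the whole range of the group, above Dixon's 95% critical value for 5 values. Of 36 groups of 5 looked at this way (10 genes and 2 ratios in 3 groups), 1 passed, and chance flags about 1 in 20. Naive 5 was also the lowest Naive library for B2m, H2-K1, H2-Q7, H2-T23, Tap2 and Tapbp and the highest for Tap1. Over all genes, its chi-square per degree of freedom was 161.2, 180.8 and 156.3 against Naive 1, 3 and 4, and 82.61 against Naive 2. The other Naive libraries among themselves gave 10.75 to 82.72, so Naive 5 was no further from Naive 2 than Naive 3 was. Naive 5 also held the highest myeloid marker sum of all libraries (175 CPM) and the lowest CD8+ T cell marker sum of its group (4699 CPM). The part of this in its values was not tested.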

How the results depend on the processing

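The direction of the log2 fold changes of H2-K1, H2-Q7 and Tap1 in Ag+Costim vs Naive was the same under all 20 alternatives run, and their calls held under 10, 16 and 10 of them. Of the 10 genes, the number called in Ag+Costim vs Naive was 3, fell to 0 with no low-count filter and with lane in the model, was 1 within 1 lane (5 Naive and 2 Ag+Costim libraries) and ranged from 1 to 4 with each library left out. It was 4 with median-ratio size factors, library totals, only the 10 libraries, DESeq2, limma voom and without Ag 3 and Naive 5, and 3 in the replicate block. In Ag vs Naive the number called was 0 and became 1 with median-ratio size factors, 2 with library totals alone, 3 with DESeq2, 3 with limma voom and 1 without Ag 3 and Naive 5, with a range of 0 to 2 when each library was left out. In Ag+Costim vs Ag the number called was 0 and became 5 with limma voom and 1 without the 2 low-input Ag libraries, with a range of 0 to 1 when each library was left out. Leaving out Ag 3 with Naive 5, or both low-input libraries, was chosen after seeing the data. Library totals alone moved the median log2 fold change over all tested genes in Ag+Costim vs Naive from -0.08 to -0.23, and relative to that shift Tap1, at 0.21, kept its distance from the median. The number of all genes called swung more widely: in Ag+Costim vs Ag it was 6 with edgeR, 2533 with DESeq2 and 9979 with limma voom, and in Ag vs Naive 1165, 2778 and 3478. In Ag+Costim vs Naive, edgeR called 7755 of 17366 genes in the main fit, 943 with lane in the model and 4158 of 48994 with no filter. Within 1 lane 6343 of 18287 were called, and with only the 10 libraries 10205 of 15751. Median-ratio size factors called 7871 and library totals alone 8118 of 17366 there, and 1209 and 1137 in Ag vs Naive. Without Ag 3 and Naive 5, 10103 of 17263 were called in Ag+Costim vs Naive and 3945 in Ag vs Naive. With each library left out, 255 to 3871 genes were called in Ag vs Naive. The range was 0 to 3573 in Ag+Costim vs Ag and 3892 to 9164 in Ag+Costim vs Naive.

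For transcript use, the number called was 0 in each comparison and became 1 in Ag+Costim vs Ag (H2-K1) and 1 in Ag+Costim vs Naive (H2-K1) without the low-count filter, and 2 in the latter with limma diffSplice. The H2-K1 to H2-D1 log2 ratio in Ag+Costim vs Naive passed the adjusted threshold at -0.42; it ranged from -0.47 to -0.39 with each library left out, was -0.48 within 1 lane and -0.42 in the replicate block, and passed only without Naive 5 among these, where the smallest p that fewer libraries or pairs allow is higher. The Tap1 to Tap2 log2 ratio ranged from 0.33 to 0.48 in Ag vs Naive and from 0.22 to 0.37 in Ag+Costim vs Naive with each library left out, and passed only without Naive 5. Each alternative was applied to all ratio comparisons before adjustment, so each adjusted p also depends on the other ratio comparisons. On TPM the Tap1 to Tap2 ratio in Ag+Costim vs Ag turned from -0.11 to 0.016 (adjusted exact permutation p = 0.873).

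Log2 fold changes near 0 that were not called changed sign in 58 of the fits that give a gene's value. In Ag vs Naive these were B2m (-0.12) and H2-D1 (-0.10) with lane in the model, and H2-K1 (0.081), Tapbp (0.10) and Nlrc5 (0.17) with limma voom. In Ag+Costim vs Ag they were H2-Q7 (0.14), Tap1 (0.24) and Tapbp (0.14) with no filter, Tap1 with lane in the model (0.091) and within 1 lane (0.10), and Nlrc5 with library totals (-0.086) and limma voom (-0.34). In Ag+Costim vs Naive they were B2m (0.0021), H2-D1 (0.048), Tapbp (0.030), Nlrc5 (0.077) and Erap1 (0.080) with no filter, and Tap2 (-0.081) with library totals. Without the 2 low-input Ag libraries, the values in Ag vs Naive were 0.10 for H2-K1, 0.053 for H2-T23, 0.026 for Tapbp and 0.31 for Nlrc5, and those in Ag+Costim vs Ag were 0.14 for H2-Q7, 0.20 for Tap1 and -0.27 for Nlrc5. Without Ag 3 and Naive 5, H2-K1 (0.039), Tap2 (0.019) and Tapbp (0.050) in Ag vs Naive and Erap1 (0.027) in Ag+Costim vs Naive turned. With each library left out, Ag vs Naive values ranged from -0.18 to 0.068 for H2-K1, -0.21 to 0.014 for H2-T23, -0.11 to 0.025 for Tap2, -0.10 to 0.043 for Tapbp and -0.44 to 0.079 for Nlrc5. Ag+Costim vs Ag values ranged from -0.15 to 0.014 for H2-Q7, -0.065 to 0.14 for Tap1, -0.15 to 0.013 for Tapbp and -0.16 to 0.37 for Nlrc5. Ag+Costim vs Naive values ranged from -0.15 to 0.034 for H2-D1, -0.21 to 0.075 for Nlrc5 and -0.15 to 0.018 for Erap1. The causes were not tested.

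Deviations of replicates with the same number had correlations from -0.32 to 0.47. In Ag vs Naive they were 0.42, 0.47 and 0.41 for replicates 1, 4 and 5, and -0.12 and -0.32 for replicates 2 and 3. In the comparisons with Ag+Costim they ran from -0.25 to 0.17. Such correlations cannot settle whether the numbers mark pairs. With the replicate block, 0, 0 and 3 of the 10 genes were called in Ag vs Naive, Ag+Costim vs Ag and Ag+Costim vs Naive. Over all 17366 tested genes, that fit called 1660, 0 and 7833. Library pairs within groups differed by more than counting error, so the intervals carry the spread between libraries beside the depth.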
